A study of Mus musculus with 48 samples.

Results

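The integrated stress response and amino acid genes described here are 44 genes of the mouse ATF4 pathway, taken from a fixed list of names: 7 transcription regulators, 7 effectors, 11 enzymes of amino acid and one-carbon synthesis, 7 amino acid transporters and 12 cytosolic tRNA synthetases. All 44 were found among the 39017 gene identifiers counted. They were chosen by name and not by a threshold on these values, though with earlier results of these data known. They were read in 48 polyA RNA libraries of 16 groups, 3 libraries each, from the mouse pancreatic neuroendocrine tumour lines βTC3, an insulinoma line, and AJ-5257-1 (AJ below). The study asked what ALK7, a type I receptor for activin B encoded by Acvr1c, does in such cells. The cells held a plasmid that doxycycline (dox) switches on: the control PB-33 (vector below), a constitutively active form of ALK7 (ALK7-CA) or, for AJ alone, the receptor ALK7 itself.

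In batch 1, each line gave vector libraries at 0, 2 and 24 h of dox (2 µg/ml) and ALK7-CA libraries at 2 and 24 h. No ALK7-CA library was made without dox. In every comparison of ALK7-CA with vector, the induced receptor and a standing difference between the cells therefore cannot be told apart. In batch 2, vector cells of each line had no dox and received either nothing or activin B (50 ng/ml, 24 h), and AJ cells carrying ALK7 had 24 h of dox, again with nothing added or with activin B. Whether a line is 1 clone is not given in the sources used here, and replicates are triplicate wells: a p-value weighs a difference against the scatter of such wells, which may be technical. RNA came from whole wells, so fewer cells of a kind and less RNA per cell cannot be told apart. Library totals lay between 17.98 M and 38.85 M counts. Values are CPM (counts relative to the library size in M, the latter scaled within line and batch, not divided by gene length, so that levels are compared within a gene), changes are on the log2 scale and carry a standard error (SE), and "rose" and "fell" are kept for genes with an adjusted p under 0.05 over all tested genes in edgeR's quasi-likelihood test. The 14 beta cell and endocrine markers summed to 21342 to 37377 CPM in βTC3 and 7033 to 14690 CPM in AJ, while the summed acinar, fibroblast, endothelial and leukocyte markers stayed under 10 CPM in every library. Single markers within the first sum differed between the lines in both directions. In vector cells at 0 h of batch 1, mean Ins2 was 8362 CPM in βTC3 and 0.151 CPM in AJ, and mean Ins1 2540 and 1.13 CPM. Chgb went the other way, at 600 and 6101 CPM, and was the largest part of the AJ sum. Duct markers summed to at most 7.85 CPM in βTC3 and 42.3 CPM in AJ, and Krt19 and Sox9 stayed under 1 CPM. Markers of other endocrine cells (Gcg, Sst, Ppy, Hhex) summed to 36.1 to 172 CPM in βTC3 and 225 to 2960.03 CPM in AJ. The counts on Acvr1c were not raised in cells labelled as carrying a receptor plasmid: medians were 2.70 CPM with ALK7-CA and 10.8 CPM with vector at 24 h in AJ, 74.8 and 118 CPM in βTC3, and 13.4 CPM in AJ with ALK7 against 10.4 CPM with vector. The sequence of the plasmid is not given in the sources used here, so these counts do not check the labels. Replicate 1 of AJ with ALK7-CA at 24 h read 14 genes typical of βTC3, chosen after seeing the data, at a median of 6.29% of their βTC3 level, against at most 0.107% in the other AJ libraries, so results that rest on it are also given without it.

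In the integrated stress response, kinases that sense endoplasmic reticulum load, amino acid shortage, viral RNA or haem shortage phosphorylate the initiation factor eIF2, which slows translation in general and favours that of Atf4 mRNA. ATF4 pairs with other bZIP proteins on C/EBP-ATF composite elements and raises genes for amino acid synthesis, amino acid uptake and tRNA charging. Prolonged activity adds Ddit3 (CHOP), Trib3 and Chac1, which are linked to feedback and cell death, and beta cells are known for a high load of secretory protein.

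Sequences upstream of the start sites show which members carry the composite element core in their promoter. RefSeq promoters (build GRCm38.p6) were used for 37 of the 44 members, all but Cth, Slc7a3, Slc7a5, Cars, Lars, Nars and Wars. Within 250 bases before to 50 bases after the start, the motif TGATGNAA, searched on both strands, was present for 16 of these 37 (43.2%), against 4.51% of all 27025 genes with a promoter of that length. The stricter TTGCATCA, each of whose matches is also a match of the first motif, was present for 13 of 37 (35.1%) against 1.03% of all genes. Below are the 250 bases before the start, 5′ to 3′ on the strand of the gene, of a pair of regulators, 1 effector, a pair of synthesis enzymes, 1 transporter and 1 synthetase whose levels are described further on, with the motif in capitals. They are Atf3 (chr1:191183334-191183583, minus strand, match starting 110 bases before the start), Nupr1 (chr7:126625471-126625720, minus, 110 bases), Chac1 (chr2:119350992-119351241, plus, 193 bases), Asns (chr6:7693210-7693459, minus, 23 bases), Got1 (chr19:43524606-43524855, minus, 102 bases), Slc7a11 (chr3:50443614-50443863, minus, with a pair of matches, the first at 66 bases) and Gars (chr6:55037751-55038000, plus, 30 bases).
Atf3: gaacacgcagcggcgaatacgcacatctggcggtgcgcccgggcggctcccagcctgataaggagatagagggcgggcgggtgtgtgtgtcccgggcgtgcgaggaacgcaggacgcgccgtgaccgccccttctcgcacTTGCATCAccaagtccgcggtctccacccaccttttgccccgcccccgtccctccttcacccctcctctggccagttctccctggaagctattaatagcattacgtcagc
Nupr1: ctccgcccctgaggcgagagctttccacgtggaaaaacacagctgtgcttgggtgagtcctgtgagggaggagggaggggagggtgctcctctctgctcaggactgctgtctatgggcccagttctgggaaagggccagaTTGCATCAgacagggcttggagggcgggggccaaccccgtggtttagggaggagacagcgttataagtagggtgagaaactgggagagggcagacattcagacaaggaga
Chac1: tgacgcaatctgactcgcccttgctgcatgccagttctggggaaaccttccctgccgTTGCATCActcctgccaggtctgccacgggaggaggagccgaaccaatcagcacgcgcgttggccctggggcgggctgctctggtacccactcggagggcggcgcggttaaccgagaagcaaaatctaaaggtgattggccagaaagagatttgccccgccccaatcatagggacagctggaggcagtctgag
Asns: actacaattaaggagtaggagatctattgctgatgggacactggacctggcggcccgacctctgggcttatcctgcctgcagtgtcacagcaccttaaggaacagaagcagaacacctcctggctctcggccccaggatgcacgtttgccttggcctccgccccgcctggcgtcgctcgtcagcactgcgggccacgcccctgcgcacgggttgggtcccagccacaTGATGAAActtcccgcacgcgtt
Got1: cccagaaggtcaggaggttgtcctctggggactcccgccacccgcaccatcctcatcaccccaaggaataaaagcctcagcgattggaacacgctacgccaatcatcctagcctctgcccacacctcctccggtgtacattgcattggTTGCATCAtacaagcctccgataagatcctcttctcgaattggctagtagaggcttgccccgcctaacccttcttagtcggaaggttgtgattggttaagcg
Slc7a11: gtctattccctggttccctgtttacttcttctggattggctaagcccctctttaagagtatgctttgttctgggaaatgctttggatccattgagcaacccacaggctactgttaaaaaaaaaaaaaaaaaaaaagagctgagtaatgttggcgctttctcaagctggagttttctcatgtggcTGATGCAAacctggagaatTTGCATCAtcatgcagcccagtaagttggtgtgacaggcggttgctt
Gars: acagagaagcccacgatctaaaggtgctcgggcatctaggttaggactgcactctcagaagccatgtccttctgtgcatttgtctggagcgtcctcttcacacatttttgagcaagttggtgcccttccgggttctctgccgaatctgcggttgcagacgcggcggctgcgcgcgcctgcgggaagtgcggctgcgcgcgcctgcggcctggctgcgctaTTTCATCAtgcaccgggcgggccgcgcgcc

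A match describes letters in the window and is not a bound site. Among members without a match in the window were Ddit3, Sesn2, Psat1, Phgdh and Cbs, and the match of Trib3 lay just after its start.

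Ddit3, Atf3, Trib3 and Chac1, chosen after their values were seen, read higher in βTC3 of batch 1 before induction than in βTC3 of batch 2, in cells that carry the same labels for line, plasmid and dox. CPM were scaled within each batch, and the difference between batches was not tested. Not all regulators and effectors followed: Sesn2 read 156, 163 and 106 CPM in batch 1 and 164, 165 and 179 CPM in batch 2. Ddit3 (ENSMUSG00000025408, chromosome 10, 127290774 to 127296288, plus strand, GRCm38) read 97.02, 108 and 75.1 CPM in βTC3 vector cells at 0 h of batch 1 and 22.8, 22.9 and 21.8 CPM in those of batch 2. In AJ vector cells at 0 h it read 12.7, 13.3 and 11.5 CPM in batch 1 and 18.2, 15.7 and 19.8 CPM in batch 2. The 3 libraries of βTC3 batch 1 thus stood above all others of these 4 groups, and the other 3 groups lay between 11.5 and 22.9 CPM.

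Atf3, a bZIP factor induced by stress, read 17.9, 17.6 and 17.005 CPM in βTC3 batch 1 and 3.47, 4.01 and 3.68 CPM in βTC3 batch 2, against 2.64, 3.08 and 3.01 and 7.64, 10.03 and 8.03 CPM in AJ. Its order between the lines was therefore opposite in the batches, with βTC3 above AJ in batch 1 (log2 difference 2.63, SE 0.11, adjusted p = 7.74e-07) and below AJ in batch 2 (log2 difference −1.11, SE 0.14, adjusted p = 0.000134). Trib3, a pseudokinase that feeds back on ATF4, read 65.6, 72.4 and 45.1 CPM in βTC3 batch 1, 12.7, 11.7 and 14.9 CPM in βTC3 batch 2, 10.5, 12.3 and 9.15 CPM in AJ batch 1 and 11.9, 8.69 and 12.02 CPM in AJ batch 2. Chac1, a glutathione-degrading enzyme, read 61.8, 64.1 and 34.97, then 21.2, 21.9 and 22.1, then 15.3, 17.2 and 12.9 and 22.3, 22.1 and 21.4 CPM in the same order of groups. For Trib3 and Chac1, too, the βTC3 batch 1 libraries were the highest and did not overlap any of the others.

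Between the lines at 0 h in batch 1, 24 of 43 tested members were higher in βTC3 and 10 lower, where 36.5% and 35.6% of all tested genes were. In batch 2 these counts were 15 and 22 of 43, against 37.6% and 38.5% of all genes. The median member differed by 0.37 (log2, βTC3 minus AJ) in batch 1 and by −0.12 in batch 2, with all-gene medians of −0.02 and −0.01. All 7 regulators were higher in βTC3 in batch 1, with differences of 2.94 for Ddit3 and 0.39 for Atf4. In batch 2, 4 were higher and 2 lower, with 0.43 for Ddit3 and 0.11 for Atf4, which did not pass. Of the other effectors, enzymes and transporters, the log2 differences in batches 1 and 2 were 2.56 and 0.36 for Trib3 (the second not passing), 1.87 and 0.08 for Chac1 (the second not passing) and 0.62 and 0.65 for Sesn2, a leucine sensor. Trib3 passed without replicate 3 of untreated AJ vector (log2 value 0.43, adjusted p = 0.0486). With the replicate number as a block shared by the lines, an alternative chosen after seeing the data, 24 were higher and 14 lower in batch 1 and 17 and 23 in batch 2, where Atf4 (log2 change 0.11, adjusted p = 0.0326) and Trib3 (log2 change 0.37, adjusted p = 0.0101) then passed. Of all genes 39.4% and 40.2% did so in batch 1 and 39.5% and 40.1% in batch 2. Whether these differences differ between the batches was not tested.

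Some members kept the order of the lines in both batches and others did not. Cbs, which makes cystathionine from homocysteine and serine, read 16.4, 18.9 and 12.2 and 28.4, 28.3 and 26.6 CPM in βTC3 against 1.59, 1.26 and 1.45 and 1.81, 1.11 and 0.886 CPM in AJ, with log2 differences of 3.50 and 4.51. Phgdh, the first enzyme of serine synthesis, was higher in βTC3 (2.48 and 1.57), as was Got1, the cytosolic aspartate aminotransferase (1.13 and 1.10), while Pycr1, which makes proline, was lower (−1.69 and −1.39). Nupr1, a small stress-induced chromatin protein, was higher (2.71 and 1.41), and the synthetase genes Aars and Cars differed by 0.98 and 0.78 in batch 1 and by 0.48 and −0.07 in batch 2, where Cars did not pass. Asns, which makes asparagine, was higher in βTC3 (0.69 and 0.44), as was the serine enzyme Psat1 (0.61 and 0.22). Slc7a11, the cystine transporter, was higher in batch 1 and lower in batch 2 (0.83 and −0.42). All 7 transporters were lower in βTC3 in batch 2, though Slc6a9 and Slc3a2 rested on single libraries, with −1.35 for the cationic amino acid transporter gene Slc7a3. In batch 2 the lipoprotein receptor gene Vldlr (−1.05), the one-carbon enzyme gene Mthfd2 (−0.74) and the cysteine-forming enzyme gene Cth (−1.83) were lower as well.

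**Figure D1:**
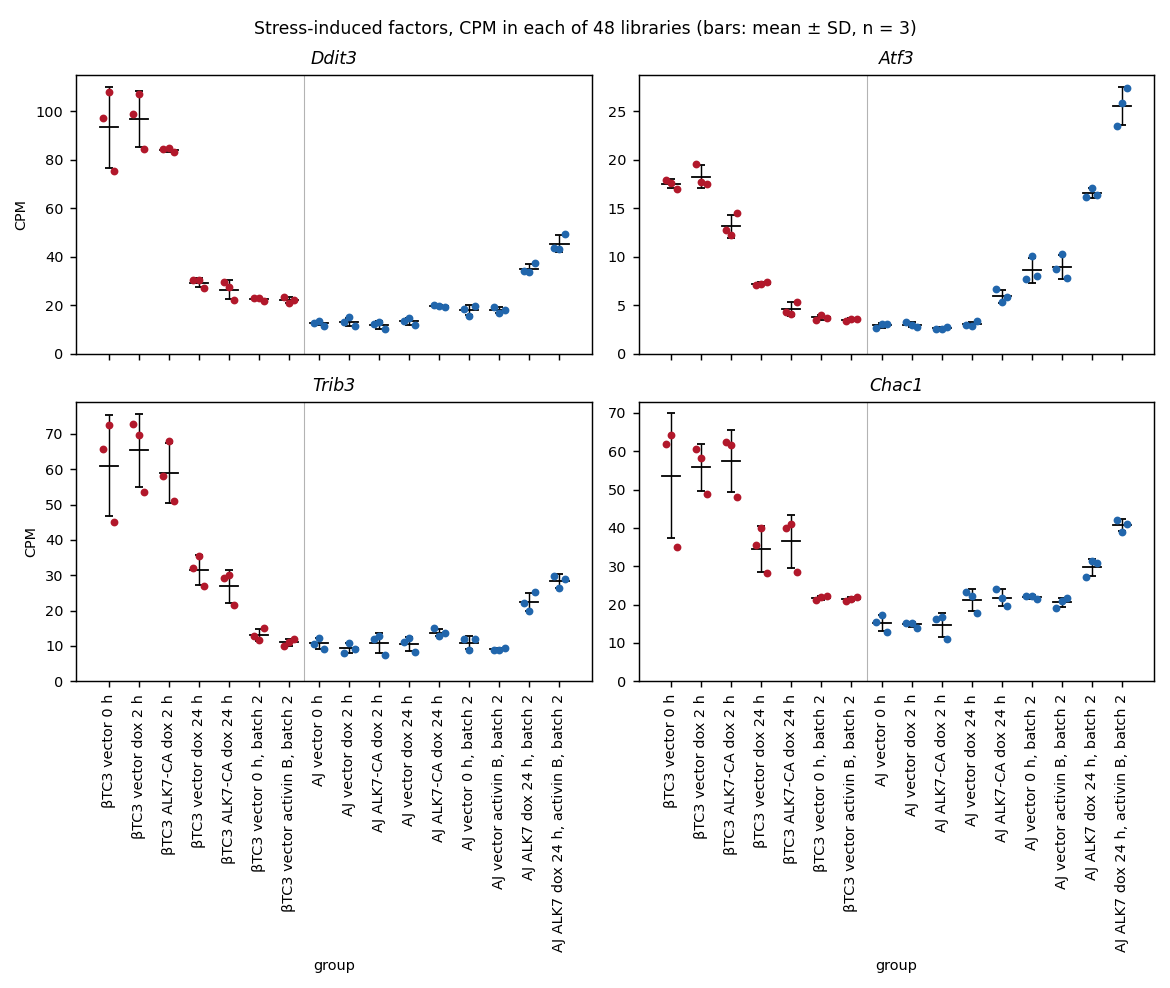
CPM of Ddit3, Atf3, Trib3 and Chac1 (y axes) in each library of the 16 groups (x axis), βTC3 in red and AJ in blue, with black bars for the mean ± SD of 3 libraries. Group means are highest in βTC3 of batch 1 at 0 and 2 h for Ddit3, Trib3 and Chac1, and AJ cells with ALK7 and activin B for Atf3, at 23.4, 25.9 and 27.3 CPM.

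**Figure D2:**
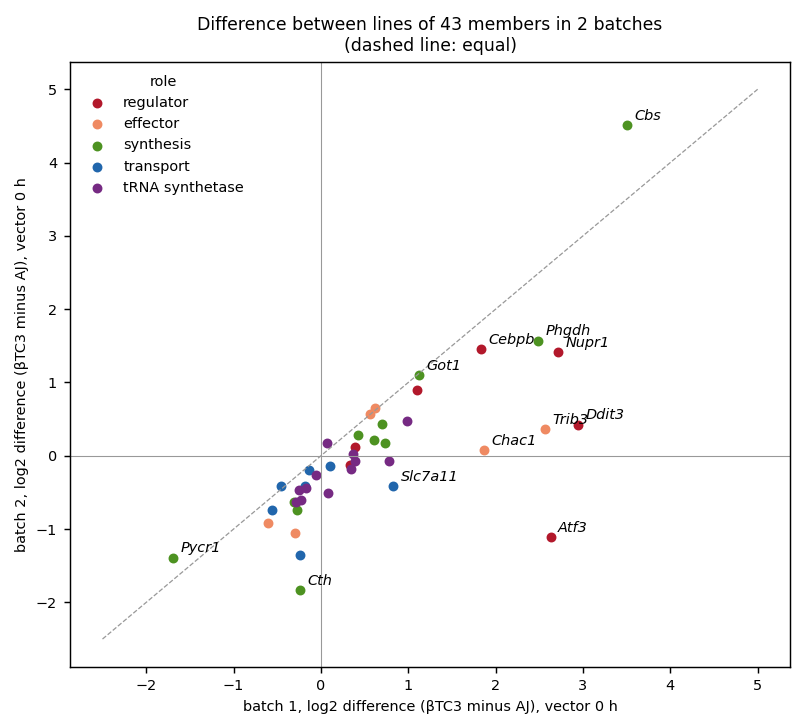
Log2 difference between the lines at 0 h, βTC3 minus AJ, in batch 1 (x axis) and batch 2 (y axis) for 43 members, coloured by role, with a dashed line where both are equal. Atf3 (2.63 and −1.11), Ddit3, Trib3 and Chac1 lie far below the dashed line, and Cbs lies above it.

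Dox alone was next read in vector cells, which carry no receptor plasmid. In βTC3 the stress factors of batch 1 were lower after 24 h of dox. Ddit3 read 30.2, 30.4 and 27.2 CPM at 24 h, below all 3 libraries at 0 h, a 3.19-fold fall (log2 change −1.67, SE 0.14, adjusted p = 5.03e-06). Atf3 fell from 17.9, 17.6 and 17.005 to 7.03, 7.17 and 7.35 CPM (log2 change −1.29, SE 0.10, adjusted p = 3.73e-06) and Trib3 from 65.6, 72.4 and 45.1 to 32.1, 35.4 and 26.96 CPM (log2 change −0.95, SE 0.19, adjusted p = 0.00285). Neither gene's libraries overlapped between these times. Chac1 read 35.6, 40.05 and 28.2 CPM at 24 h, overlapping the 0 h libraries, did not pass (log2 change −0.63, SE 0.22, adjusted p = 0.0510) and passed with the replicate number as a block (log2 change −0.61, adjusted p = 0.000189). Chac1 passed without replicate 3 of βTC3 vector at 0 h (log2 value −0.84, adjusted p = 0.00506). Culture time and dox changed together from 0 to 24 h, so that they cannot be told apart.

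Of the 44 members in βTC3, 3 rose and 8 fell after 24 h of dox, where 10.6% of all genes rose and 12.7% fell, so that the share of members past the threshold was close to that of all genes. With the block, 6 rose and 21 fell, where 23.8% and 21.5% of all genes did. The 0 and 24 h libraries did not overlap for 16 members, where they did not for 35.6% of all genes. The median member changed by −0.11 (all genes 0.00). Cbs rose from 16.4, 18.9 and 12.2 to 27.5, 27.4 and 27.4 CPM (log2 change 0.80), and the neutral amino acid transporter gene Slc1a4 (0.28) and the synthetase gene Wars (0.38) rose as well. Cth (−0.55), Slc7a3 (−0.51), Psat1 (−0.26), the phosphoserine phosphatase gene Psph (−0.21) and Nupr1 (−0.34) fell. Psph no longer passed without any 1 of 4 libraries, all but replicate 3 of βTC3 vector at 24 h and replicate 3 of βTC3 vector at 0 h (log2 value −0.19 to −0.18, adjusted p = 0.0588 to 0.0929). Nupr1 no longer passed without any 1 of 5 libraries, all but replicate 3 of βTC3 vector at 0 h (log2 value −0.37 to −0.26, adjusted p = 0.0538 to 0.109). Among members that did not pass, log2 changes were 0.09 for Atf4, −0.06 for Asns, 0.11 for Slc7a11 and 0.38 for Sesn2, and Sesn2 passed with the block (log2 change 0.40, adjusted p = 4.81e-05).

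In AJ vector cells the same 24 h gave 4 rises and 0 falls among 44 members, against 1.43% and 1.27% of all genes. AJ libraries at 0 and 24 h did not overlap for 19 members, where they did not for 20.1% of all genes. Nupr1 read 3.95, 3.78 and 4.19 CPM at 0 h and 7.26, 7.14 and 7.11 CPM at 24 h, without overlap (log2 change 0.85, SE 0.11, adjusted p = 0.00247). Atf4 itself rose from 236, 251 and 236 to 296, 302 and 286 CPM (log2 change 0.29, SE 0.05, adjusted p = 0.00817), Cth by 0.39 and the proline-pathway enzyme gene Aldh18a1 by 0.25 (log2). The other named members did not pass, with log2 changes of 0.09 for Ddit3, −0.02 for Trib3, 0.48 for Chac1, 0.18 for Asns, 0.11 for Psat1, −0.05 for Slc7a11 and 0.05 for Sesn2. Aldh18a1 no longer passed without any 1 of 5 libraries, all but replicate 3 of AJ vector at 24 h (log2 value 0.21 to 0.29, adjusted p = 0.0693 to 0.153). With the replicate number as a block, since the libraries of these groups were read as paired, 15 rose and 0 fell, against 5.13% and 5.22% of all genes, with Chac1 (log2 change 0.48, adjusted p = 0.00842) and Asns (log2 change 0.18, adjusted p = 0.0147) among the rises. The count was 8 with DESeq2 and 1 with both groups fitted alone, settings for which the share of all genes is not given.

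After 2 h of dox, 0 of 44 members rose or fell in βTC3 and 0 in AJ by edgeR, with 1 member in each line at an unadjusted p under 0.05 and 0 called by DESeq2 in either line, where 0.00633% and 0.00% of all genes passed. Log2 changes at 2 h were 0.01 for Atf4, 0.05 for Ddit3, 0.10 for Trib3, 0.06 for Chac1, −0.04 for Asns, −0.02 for Psat1, −0.10 for Slc7a11 and 0.04 for Sesn2 in βTC3. In AJ they were 0.02 for Atf4, 0.06 for Ddit3, −0.18 for Trib3, −0.03 for Chac1, 0.01 for Asns, 0.01 for Psat1, −0.38 for Slc7a11 and −0.08 for Sesn2. The 24 h change differed between the lines (βTC3 minus AJ) for 0 members upward and 10 downward of 44, where 10.4% of all genes differed and 5.40% did so downward. With the block these counts were 4 and 25, against 12.6% and 11.9% of all genes, and Atf4 (log2 change −0.21, adjusted p = 0.0232), Trib3 (log2 change −0.92, adjusted p = 0.000846) and Sesn2 (log2 change 0.34, adjusted p = 0.0235) then passed. Without the block the 10 were Ddit3 (−1.77), Atf3 (−1.36), Nupr1 (−1.20), Chac1 (−1.12), Cth (−0.95), Slc7a3 (−0.76), Psat1 (−0.38), Psph (−0.31), Asns (−0.24) and Mthfd2 (−0.24). The named members that did not pass in this difference without the block had −0.21 for Atf4, −0.94 for Trib3, 0.15 for Slc7a11 and 0.32 for Sesn2. Trib3 passed without replicate 3 of AJ vector at 24 h (log2 value −1.07, adjusted p = 0.0298) and replicate 3 of βTC3 vector at 0 h (log2 value −1.12, adjusted p = 0.0149). Chac1 no longer passed without any 1 of 9 libraries, all but replicate 2 of βTC3 vector at 24 h, replicate 3 of βTC3 vector at 0 h and replicate 3 of AJ vector at 24 h (log2 value −1.22 to −0.99, adjusted p = 0.0635 to 0.0896). Psat1 no longer passed without replicate 1 of βTC3 vector at 24 h, or replicate 2 of AJ vector at 0 h (log2 value −0.38 to −0.36, adjusted p = 0.0506 to 0.0551). Psph no longer passed without any 1 of 10 libraries, all but replicate 3 of βTC3 vector at 24 h and replicate 3 of βTC3 vector at 0 h (log2 value −0.34 to −0.28, adjusted p = 0.0515 to 0.0958). Asns no longer passed without any 1 of 10 libraries, all but replicate 1 of βTC3 vector at 0 h and replicate 1 of AJ vector at 24 h (log2 value −0.27 to −0.22, adjusted p = 0.0574 to 0.118). Mthfd2 no longer passed without any 1 of 10 libraries, all but replicate 1 of βTC3 vector at 0 h and replicate 3 of AJ vector at 24 h (log2 value −0.28 to −0.23, adjusted p = 0.0625 to 0.127).

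**Figure D3:**
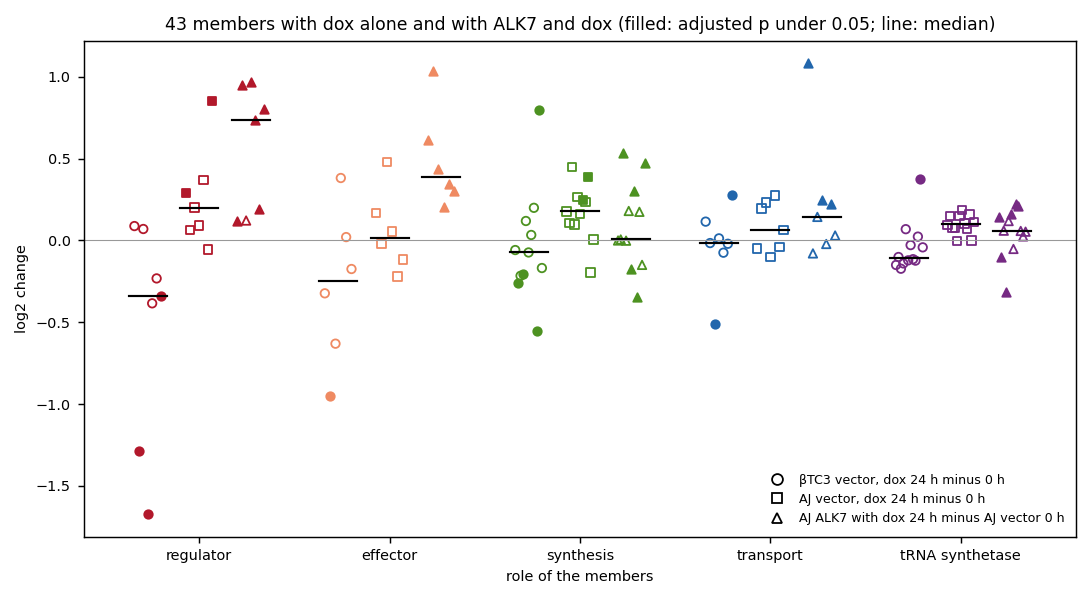
Log2 change of 43 members (Fgf21 is not drawn), grouped by role on the x axis, for 24 h of dox in βTC3 vector cells (circles), in AJ vector cells (squares) and for AJ cells with ALK7 and 24 h of dox against AJ vector cells at 0 h (triangles), with filled symbols for those past the threshold and a line for the median of those drawn. The lowest circles are Ddit3 (−1.67), Atf3 (−1.29) and Trib3 (−0.95), and the regulators and effectors of AJ with ALK7 all lie above 0.

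In AJ at 24 h of dox, synthesis and charging genes were lower with constitutively active ALK7 than with vector, and a few stress factors were higher. Of 43 members, leaving out Fgf21, which passed the low-count filter only through the ALK7-CA group, 23 fell and 4 rose, where 19.9% of all genes fell and 20.8% rose. The falls held 11 of 12 synthetases, 9 of 11 synthesis enzymes, 2 of 7 transporters and 1 of 7 regulators, and the rises 3 regulators and 1 effector. The median of these members changed by −0.24, against −0.01 over all genes. Libraries of the compared groups did not overlap for 29 of these members, where they did not for 47.8% of all genes. Without replicate 1 of ALK7-CA, 22 fell and 4 rose. Of the 14 beta cell and endocrine markers, 5 of 13 tested fell and 3 rose, and their part in the members' changes was not tested. These marker counts include replicate 1 of ALK7-CA, the library with βTC3 transcripts, and are not given without it. Ins2 read 622 CPM in it and 0.0734 and 0.138 CPM in replicates 2 and 3, while Isl1 read 542, 542 and 532 CPM. The summed other endocrine markers had a median of 2809 CPM in vector and 572 CPM in ALK7-CA cells, and their part was not tested either. Within that sum Sst (log2 change −2.23) and Gcg (−1.36) fell, while Ppy rose (5.84), from a mean of 0.254 to 14.9 CPM.

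Among the regulators, Atf4 read 296, 302 and 286 CPM in vector cells and 233, 227 and 241 CPM with ALK7-CA, without overlap, and fell (log2 change −0.34, SE 0.05, adjusted p = 8.04e-05). Ddit3 rose from 13.5, 14.7 and 11.9 to 20.1, 19.6 and 19.4 CPM (log2 change 0.56, SE 0.12, adjusted p = 0.00146) and Atf3 from 2.95, 2.86 and 3.32 to 6.62, 5.29 and 5.88 CPM (log2 change 0.96, SE 0.12, adjusted p = 1.75e-05). Both stayed far below their levels in untreated βTC3 of batch 1. Cebpg, a dimer partner of ATF4, rose by 0.28 (log2). Ddit4 (REDD1), which restrains mTORC1, rose from 26.6, 22.6 and 18.1 to 48.4, 45.3 and 38.9 CPM (log2 change 0.98, SE 0.14, adjusted p = 8.77e-05). Fgf21, a secreted stress hormone, had 71 counts over the 3 ALK7-CA libraries and 2 over the vector libraries, a ratio of 39.6 with a 95% counting interval of 10.6 to 333, which covers counting error only. Since it entered the test through the group where it is high, its change is given as a description, with no test.

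Among the enzymes, Mthfd2 read 249.7, 256 and 245 CPM in vector cells and 151, 152 and 159 CPM with ALK7-CA (log2 change −0.70, SE 0.04, adjusted p = 1.47e-08). Cth fell from 15.7, 14.9 and 15.8 to 8.47, 8.04 and 8.65 CPM (log2 change −0.88, SE 0.07, adjusted p = 1.49e-07) and Got1 from 84.3, 87.5 and 86.6 to 55.5, 53.3 and 54.8 CPM (log2 change −0.66, SE 0.05, adjusted p = 7.8e-08). In these 3 genes each ALK7-CA library was below each vector library. Phgdh changed by −1.004, Asns by −0.45 and Psat1 by −0.40 (log2 changes, adjusted p = 0.00105, 4.27e-06 and 0.000103). Cbs did not pass (log2 change −0.73), and passed without replicate 1, the library with βTC3 transcripts (log2 change −1.88, adjusted p = 0.00285), where it read 1.64 CPM against 0.294 and 0.380 CPM in the others.

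Of the synthetases, Gars fell from 624, 660.2 and 644 to 413, 417 and 439 CPM (log2 change −0.60, SE 0.04, adjusted p = 1.36e-07), Cars (log2 change −0.47) and Wars (−0.42) fell too, and Eprs, whose protein charges the tRNAs of glutamate and proline, did not pass (−0.13). Slc1a4 fell from 106, 109 and 112 to 77.96, 80.6 and 75.8 CPM (log2 change −0.49, SE 0.05, adjusted p = 6.39e-06), as did Slc7a3 (log2 change −0.23). The named members that did not pass were at 0.39 for Trib3, 0.05 for Chac1, −0.03 for Slc7a11 and −0.18 for Sesn2. Slc7a3 no longer passed without replicate 3 of AJ vector at 24 h, or replicate 1 of AJ ALK7-CA at 24 h (log2 value −0.18 to −0.17, adjusted p = 0.0757 to 0.0837). Pycr1 no longer passed without any 1 of 4 libraries, all but replicate 3 of AJ ALK7-CA at 24 h and replicate 3 of AJ vector at 24 h (log2 value −0.23 to −0.20, adjusted p = 0.0721 to 0.101). Lars no longer passed without replicate 3 of AJ vector at 24 h, or replicate 1 or 2 of AJ ALK7-CA at 24 h (log2 value −0.19 to −0.16, adjusted p = 0.0726 to 0.0897).

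In βTC3 at 24 h of dox, some synthesis and charging genes were lower with ALK7-CA than with vector as well. Of 44 members, 2 rose and 9 fell, against 8.02% and 5.48% of all genes, with a median of −0.11 (all genes −0.01). With the replicate number as a block, since the βTC3 libraries were read as paired, 7 rose and 21 fell, where 27.9% of all genes passed and 12.9% fell. Over genes with a mean log2 CPM over 4, same-numbered libraries of these groups correlated at 0.146, 0.599 and 0.7. Over genes above log2 CPM 0 they did so at −0.00846, 0.33 and 0.441. Vector and ALK7-CA libraries did not overlap for 26 members, where they did not for 30.2% of all genes. All 11 synthesis enzymes and 11 of 12 synthetases had a log2 change below 0, 5 and 2 of them past the threshold. Atf3 fell from 7.03, 7.17 and 7.35 to 4.31, 4.07 and 5.36 CPM (log2 change −0.65, SE 0.10, adjusted p = 0.000699). Cth read 6.39, 6.42 and 7.13 CPM in vector and 3.95, 4.98 and 4.51 CPM in ALK7-CA cells (log2 change −0.57, SE 0.09, adjusted p = 0.000934), and Cbs 27.5, 27.4 and 27.4 and 18.5, 17.8 and 16.04 CPM (log2 change −0.65, SE 0.13, adjusted p = 0.00458). None of these 3 genes' libraries overlapped between the groups.

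Got1 (−0.30), Gars (−0.27), Wars (−0.41) and Asns (−0.24) fell too (log2 changes), while Cebpg rose by 0.45 and Ddit4 by 0.46. Ddit4 no longer passed without any 1 of 4 libraries, all but replicate 3 of βTC3 ALK7-CA at 24 h and replicate 1 of βTC3 vector at 24 h (log2 value 0.33 to 0.49, adjusted p = 0.0559 to 0.122). The named members that did not pass had log2 changes of −0.01 for Atf4, −0.15 for Ddit3, −0.23 for Trib3, 0.08 for Chac1, −0.10 for Psat1, −0.24 for Slc7a11 and 0.18 for Sesn2. With the block, Trib3 (log2 change −0.23, adjusted p = 0.0239), Psat1 (log2 change −0.10, adjusted p = 0.0211), Sesn2 (log2 change 0.17, adjusted p = 0.0214) and Phgdh (log2 change −0.34, adjusted p = 0.00101) passed. The median of the summed other endocrine markers was 133 CPM in vector and 99.8 CPM in ALK7-CA cells. Of these markers Gcg fell (log2 change −0.52), Ppy rose (1.62) and Sst did not pass (0.81).

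The 24 h change with ALK7-CA differed between the lines (βTC3 minus AJ) for 11 members upward and 2 downward of 43, Fgf21 left out, where 9.18% and 8.32% of all genes did. Without the AJ library with βTC3 transcripts these counts were 9 and 2. The downward members were Atf3 (log2 difference −1.61, adjusted p = 0.000136) and Ddit3 (−0.71). The upward members included Mthfd2 (0.53), Slc1a4 (0.50), Cars (0.43), Got1 (0.36), Gars (0.34), Atf4 (0.33), Psat1 (0.30) and the synthetase gene Tars (0.27). For the other named members the differences did not pass, at −0.61 for Trib3, 0.03 for Chac1, 0.21 for Asns, −0.21 for Slc7a11 and 0.36 for Sesn2. Asns passed without replicate 1 of AJ vector at 24 h (log2 value 0.24, adjusted p = 0.0415). Psat1 no longer passed without any 1 of 7 libraries, all but replicate 2 of βTC3 ALK7-CA at 24 h, replicate 3 of βTC3 vector at 24 h, replicate 3 of AJ ALK7-CA at 24 h and replicate 1 or 2 of AJ vector at 24 h (log2 value 0.24 to 0.32, adjusted p = 0.0510 to 0.0982).

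At 2 h of dox few members differed between ALK7-CA and vector cells. In βTC3, 0 rose and 1 fell of 44, against 1.25% and 0.272% of all genes, and 8 passed with the block (1 upward, 7 downward, against 4.58% and 2.61% of all genes). The 1 was Atf3, which read 19.6, 17.7 and 17.5 CPM in vector and 12.7, 12.2 and 14.5 CPM in ALK7-CA cells (log2 change −0.47, SE 0.10, adjusted p = 0.0285). Atf3 no longer passed without any 1 of 5 libraries, all but replicate 3 of βTC3 ALK7-CA at 2 h (log2 value −0.49 to −0.41, adjusted p = 0.0711 to 0.145). Log2 changes of the named members were 0.04 for Atf4, −0.20 for Ddit3, −0.15 for Trib3, 0.04 for Chac1, −0.08 for Asns, −0.15 for Psat1, −0.01 for Slc7a11 and 0.05 for Sesn2. In AJ, Slc7a3 rose from 59.6, 62.3 and 65.1 to 76.4, 77.2 and 85.1 CPM (log2 change 0.35, SE 0.07, adjusted p = 0.00304), Slc1a4 fell from 96.7, 103 and 99.3 to 75.6, 84.8 and 77.8 CPM (log2 change −0.33, SE 0.05, adjusted p = 0.000737) and Pycr1 fell (log2 change −0.25). Pycr1 no longer passed without any 1 of 4 libraries, all but replicate 1 of AJ ALK7-CA at 2 h and replicate 3 of AJ vector at 2 h (log2 value −0.28 to −0.17, adjusted p = 0.0671 to 0.201). This 1 rise and 2 falls stand beside 8.24% and 7.54% of all genes. With the replicate number as a block, since these libraries too were read as paired, 5 rose and 5 fell, against 13.1% and 12.1% of all genes, with Psat1 (log2 change 0.14, adjusted p = 0.0392) and Sesn2 (log2 change −0.23, adjusted p = 0.00915) passing. Without the block the named members did not pass there, at −0.08 for Atf4, −0.15 for Ddit3, 0.19 for Trib3, −0.02 for Chac1, −0.04 for Asns, 0.14 for Psat1, 0.28 for Slc7a11 and −0.22 for Sesn2.

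Slc7a3 in AJ was thus above vector at 2 h and, with a call that rested on single libraries, below it at 24 h, and its change differed between the times (log2 difference −0.58, SE 0.10, adjusted p = 0.000758, 24 h minus 2 h). Between the times in AJ, 14 members differed downward and 3 upward, Fgf21 left out, against 10.2% and 10.8% of all genes, and 12 and 2 without the library with βTC3 transcripts. Downward were Mthfd2 (−0.69), Got1 (−0.61), Cth (−0.77), Gars (−0.50), Psat1 (−0.54), Asns (−0.40) and Atf4 (−0.25) among others, and upward Atf3 (1.14) and Ddit3 (0.71). The remaining named members did not pass (0.20 for Trib3, 0.06 for Chac1, −0.31 for Slc7a11 and 0.04 for Sesn2). Atf4 no longer passed without replicate 1 of AJ vector at 2 h, or replicate 2 of AJ ALK7-CA at 2 h (log2 value −0.23 to −0.22, adjusted p = 0.0505 to 0.0539). In βTC3 the times differed for Cbs (log2 difference −0.94, SE 0.19, adjusted p = 0.00944) and Wars (−0.52), that is 2 downward and 0 upward where 5.85% of all genes differed, and for 7 downward and 4 upward with the block, against 7.11% and 9.05% of all genes. Wars no longer passed without replicate 2 of βTC3 vector at 2 h, or replicate 1 or 2 of βTC3 vector at 24 h, or replicate 1 of βTC3 ALK7-CA at 2 h, or replicate 1 or 3 of βTC3 ALK7-CA at 24 h (log2 value −0.56 to −0.45, adjusted p = 0.0515 to 0.0864). The named members stood at −0.06 for Atf4, 0.05 for Ddit3, −0.08 for Trib3, 0.04 for Chac1, −0.16 for Asns, 0.04 for Psat1, −0.23 for Slc7a11 and 0.13 for Sesn2, of which Asns passed with the block (log2 change −0.16, adjusted p = 0.00982).

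Activin B for 24 h lowered synthesis enzymes in both lines. In βTC3, 4 of 43 tested members rose and 15 fell, against 12.3% and 9.97% of all genes, with a median of −0.12 (all genes 0.00), and 9 of the 11 synthesis enzymes fell. Untreated and treated libraries did not overlap for 26 members, where they did not for 38.7% of all genes. Cbs read 28.4, 28.3 and 26.6 CPM in untreated and 11.2, 10.8 and 10.8 CPM in treated cells (log2 change −1.34, SE 0.06, adjusted p = 5.2e-06), the largest fall of a member there. Cth fell from 4.68, 5.58 and 5.52 to 2.93, 2.99 and 3.9996 CPM (log2 change −0.67, SE 0.15, adjusted p = 0.0163) and Wars from 128, 124 and 119 to 87.5, 90.5 and 89.7 CPM (log2 change −0.47, SE 0.04, adjusted p = 0.000121). In all 3 the treated libraries lay below the untreated ones. Cth no longer passed without replicate 2 of untreated βTC3, or replicate 1 or 2 of βTC3 with activin B (log2 value −0.63 to −0.59, adjusted p = 0.0578 to 0.0705). The glycine transporter gene Slc6a9 rose from 37.3, 33.2 and 33.9 to 56.7, 53.97 and 53.5 CPM (log2 change 0.65, SE 0.06, adjusted p = 0.000143).

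Asns (−0.36), Psat1 (−0.17), Slc7a11 (−0.54), Gars (−0.30), Aldh18a1 (−0.26), Phgdh (−0.34) and Lars (−0.19) also fell in βTC3, and Sesn2 (0.29) and Cebpg (0.24) rose (log2 changes). The stress factors did not pass, with −0.15 for Atf4, −0.02 for Ddit3, −0.25 for Trib3 and −0.02 for Chac1, but Atf4 did with the block (log2 change −0.15, adjusted p = 0.0105). The median of the summed other endocrine markers was 123 CPM in untreated and 38.5 CPM in treated cells, and their part was not tested. Within that sum Gcg (log2 change −1.81) and Sst (−0.81) fell, while Ppy rose (3.87).

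In AJ vector cells activin B gave 1 rise and 20 falls among 43 members, against 11.6% and 10.9% of all genes, with a median of −0.14 (all genes 0.00). The falls held 9 of 12 synthetases and 7 of 11 synthesis enzymes. The libraries of both groups did not overlap for 24 members, where they did not for 34.8% of all genes. With both groups fitted alone 12 members passed, a setting for which the share of all genes is not given. Cth fell from 19.5, 18.8 and 21.6 to 8.74, 9.33 and 7.53 CPM (log2 change −1.22, SE 0.09, adjusted p = 1.68e-06), Phgdh from 24.5, 22.1 and 24.3 to 15.3, 14.96 and 14.1 CPM (log2 change −0.68, SE 0.07, adjusted p = 3.12e-05) and Mthfd2 from 267, 277 and 267 to 206, 209 and 208 CPM (log2 change −0.38, SE 0.03, adjusted p = 4.58e-06). No library of the treated group reached the lowest untreated one in these genes. Gars (−0.36), Wars (−0.36), Lars (−0.24), Aars (−0.15), Psph (−0.21), Asns (−0.19), Psat1 (−0.18) and Slc7a11 (−0.56) fell, and Sesn2 rose (0.30). Slc7a11 no longer passed without any 1 of 4 libraries, all but replicate 2 of AJ vector with activin B and replicate 2 of untreated AJ vector (log2 value −0.59 to −0.39, adjusted p = 0.0670 to 0.141). Psat1 no longer passed without any 1 of 4 libraries, all but replicate 1 of AJ vector with activin B and replicate 3 of untreated AJ vector (log2 value −0.19 to −0.13, adjusted p = 0.0610 to 0.135). The others did not pass, at −0.05 for Atf4, 0.01 for Ddit3, −0.27 for Trib3 and −0.10 for Chac1. Trib3 passed without replicate 2 of untreated AJ vector (log2 value −0.40, adjusted p = 0.0224). The median of the summed other endocrine markers was 413 CPM in untreated and 255 CPM in treated cells. Of these markers Gcg fell (log2 change −1.58), and Sst (−0.56), Hhex (−0.65) and Ppy (1.63) did not pass.

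The effect of activin B differed between the lines (βTC3 minus AJ) for 4 members upward and 2 downward of 43, against 4.51% and 4.61% of all genes. Slc6a9 differed most clearly (log2 difference 0.61, SE 0.08, adjusted p = 0.000580), followed by the synthetase gene Eprs (0.29), Nupr1 (0.50), the ATF4 relative Atf5 (−0.39), Asns (−0.18) and Slc1a4 (0.21). The other named members were at −0.10 for Atf4, −0.04 for Ddit3, 0.01 for Trib3, 0.07 for Chac1, 0.00 for Psat1, 0.02 for Slc7a11 and −0.02 for Sesn2 and did not pass. Eprs no longer passed without replicate 1 or 2 of βTC3 with activin B, or replicate 1 or 2 of untreated AJ vector (log2 value 0.25 to 0.28, adjusted p = 0.0524 to 0.0580). Nupr1 no longer passed without replicate 1 or 3 of βTC3 with activin B (log2 value 0.47 to 0.48, adjusted p = 0.0554 to 0.0556). Atf5 no longer passed without any 1 of 7 libraries, all but replicate 1 of βTC3 with activin B, replicate 2 of untreated βTC3, replicate 1 of AJ vector with activin B and replicate 1 or 3 of untreated AJ vector (log2 value −0.39 to −0.35, adjusted p = 0.0506 to 0.0820). Asns no longer passed without any 1 of 7 libraries, all but replicate 3 of βTC3 with activin B, replicate 1 or 2 or 3 of untreated βTC3 and replicate 3 of AJ vector with activin B (log2 value −0.19 to −0.17, adjusted p = 0.0523 to 0.0897). Slc1a4 no longer passed without any 1 of 9 libraries, all but replicate 1 of βTC3 with activin B, replicate 2 of untreated βTC3 and replicate 3 of untreated AJ vector (log2 value 0.19 to 0.22, adjusted p = 0.0562 to 0.116).

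In AJ cells with ALK7 and dox, activin B lowered the same kinds of enzymes and raised stress factors. Of 43 tested members 8 rose and 13 fell, against 16.5% and 16.3% of all genes, with a median of −0.05 (all genes 0.00). Among them, 3 of 7 regulators and 4 of 6 tested effectors rose, and 7 of 11 synthesis enzymes and 6 of 12 synthetases fell. Libraries with and without activin B did not overlap for 31 members, where they did not for 46.7% of all genes. Ddit3 rose from 34.3, 33.6 and 37.3 to 43.4, 43.3 and 49.4 CPM (log2 change 0.37, SE 0.09, adjusted p = 0.00540), Atf3 from 16.1, 17.1 and 16.4 to 23.4, 25.9 and 27.3 CPM (log2 change 0.63, SE 0.11, adjusted p = 0.00103) and Chac1 from 27.2, 31.3 and 30.7 to 42.1, 38.96 and 41.1 CPM (log2 change 0.46, SE 0.06, adjusted p = 0.000187). The treated libraries were the higher in all 3 genes, without overlap. Trib3 (0.34), Ddit4 (0.85), Sesn2 (0.26), Atf4 (0.13) and Slc3a2, the shared heavy chain of amino acid exchangers (0.27), rose as well. Trib3 no longer passed without any 1 of 4 libraries, all but replicate 2 of AJ with ALK7 and activin B and replicate 3 of AJ with ALK7 (log2 value 0.26 to 0.33, adjusted p = 0.103 to 0.154). Atf4 no longer passed without any 1 of 4 libraries, all but replicate 2 of AJ with ALK7 and activin B and replicate 3 of AJ with ALK7 (log2 value 0.11 to 0.13, adjusted p = 0.0622 to 0.0869). The median of the summed other endocrine markers was 618 CPM without and 506 CPM with activin B. Of these markers Gcg fell (log2 change −2.01), Ppy rose (2.80), and Sst (−0.53) and Hhex (0.94) did not pass.

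Cth fell from 21.6, 23.7 and 22.4 to 10.4, 9.83 and 11.2 CPM (log2 change −1.10, SE 0.09, adjusted p = 2.04e-06) and Phgdh from 32.8, 34.1 and 35.9 to 20.5, 17.7 and 19.9 CPM (log2 change −0.82, SE 0.07, adjusted p = 2.91e-06). Mthfd2 (−0.34), Wars (−0.35), Got1 (−0.31), Psat1 (−0.31), Gars (−0.25) and Asns (−0.13) fell with them, and Slc7a11 did not pass (−0.06). The effect of activin B differed between AJ cells with ALK7 and AJ vector cells for 2 members upward and 0 downward, Chac1 (log2 difference 0.55, SE 0.09, adjusted p = 0.00799) and Nupr1 (log2 difference 0.54, SE 0.13, adjusted p = 0.0467), against 1.15% and 1.41% of all genes. The cells with ALK7 had 24 h of dox and the vector cells none, so receptor and dox cannot be told apart here. Nupr1 no longer passed without any 1 of the 12 libraries (log2 value 0.45 to 0.58, adjusted p = 0.0564 to 0.128). The other named members did not differ past the threshold (0.17 for Atf4, 0.36 for Ddit3, 0.62 for Trib3, 0.06 for Asns, −0.13 for Psat1, 0.50 for Slc7a11 and −0.04 for Sesn2). Trib3 passed without replicate 2 of untreated AJ vector (log2 value 0.74, adjusted p = 0.0199).

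Before any ligand, AJ cells with ALK7 and 24 h of dox already stood above AJ vector cells at 0 h in the stress arm. Receptor and dox differed together here, so they cannot be told apart. In all, 22 of 43 tested members were higher and 4 lower, against 14.5% and 14.6% of all genes, with a median of 0.16 (all genes 0.00). Both sets of libraries did not overlap for 28 members, where they did not for 42.0% of all genes. The higher members held 6 of 7 regulators and 6 of 6 tested effectors. Ddit3 read 18.2, 15.7 and 19.8 CPM in vector cells and 34.3, 33.6 and 37.3 CPM with ALK7 (log2 change 0.97, SE 0.09, adjusted p = 7.97e-06), Trib3 11.9, 8.69 and 12.02 and 22.01, 19.9 and 25.2 CPM (log2 change 1.04, SE 0.12, adjusted p = 5.17e-05), and Slc7a11 14.1, 11.4 and 12.02 and 29.6, 27.2 and 22.8 CPM (log2 change 1.08, SE 0.17, adjusted p = 0.000474). No libraries overlapped between the groups for these genes. Atf3 (0.95), Nupr1 (0.81), Phgdh (0.54), Got1 (0.47), Chac1 (0.44), Aldh18a1 (0.30), Nars (0.23), Sars (0.21), Sesn2 (0.20) and Atf4 (0.12) were higher, and Gars was lower (−0.32). Asns and Psat1 did not pass (log2 differences 0.00 and 0.01). Sesn2 no longer passed without any 1 of 4 libraries, all but replicate 1 of AJ with ALK7 and replicate 3 of untreated AJ vector (log2 value 0.15 to 0.21, adjusted p = 0.0730 to 0.132). Atf4 no longer passed without any 1 of 5 libraries, all but replicate 3 of untreated AJ vector (log2 value 0.10 to 0.13, adjusted p = 0.0556 to 0.124). In AJ vector cells of batch 1, 24 h of dox without the receptor gave 0.09 for Ddit3, −0.02 for Trib3 and −0.05 for Slc7a11, none of which passed. In the same cells it gave 0.85 for Nupr1, 0.29 for Atf4 and 0.25 for Aldh18a1, which passed, and 0.48 for Chac1, which passed with the block and not without it.

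**Figure D4:**
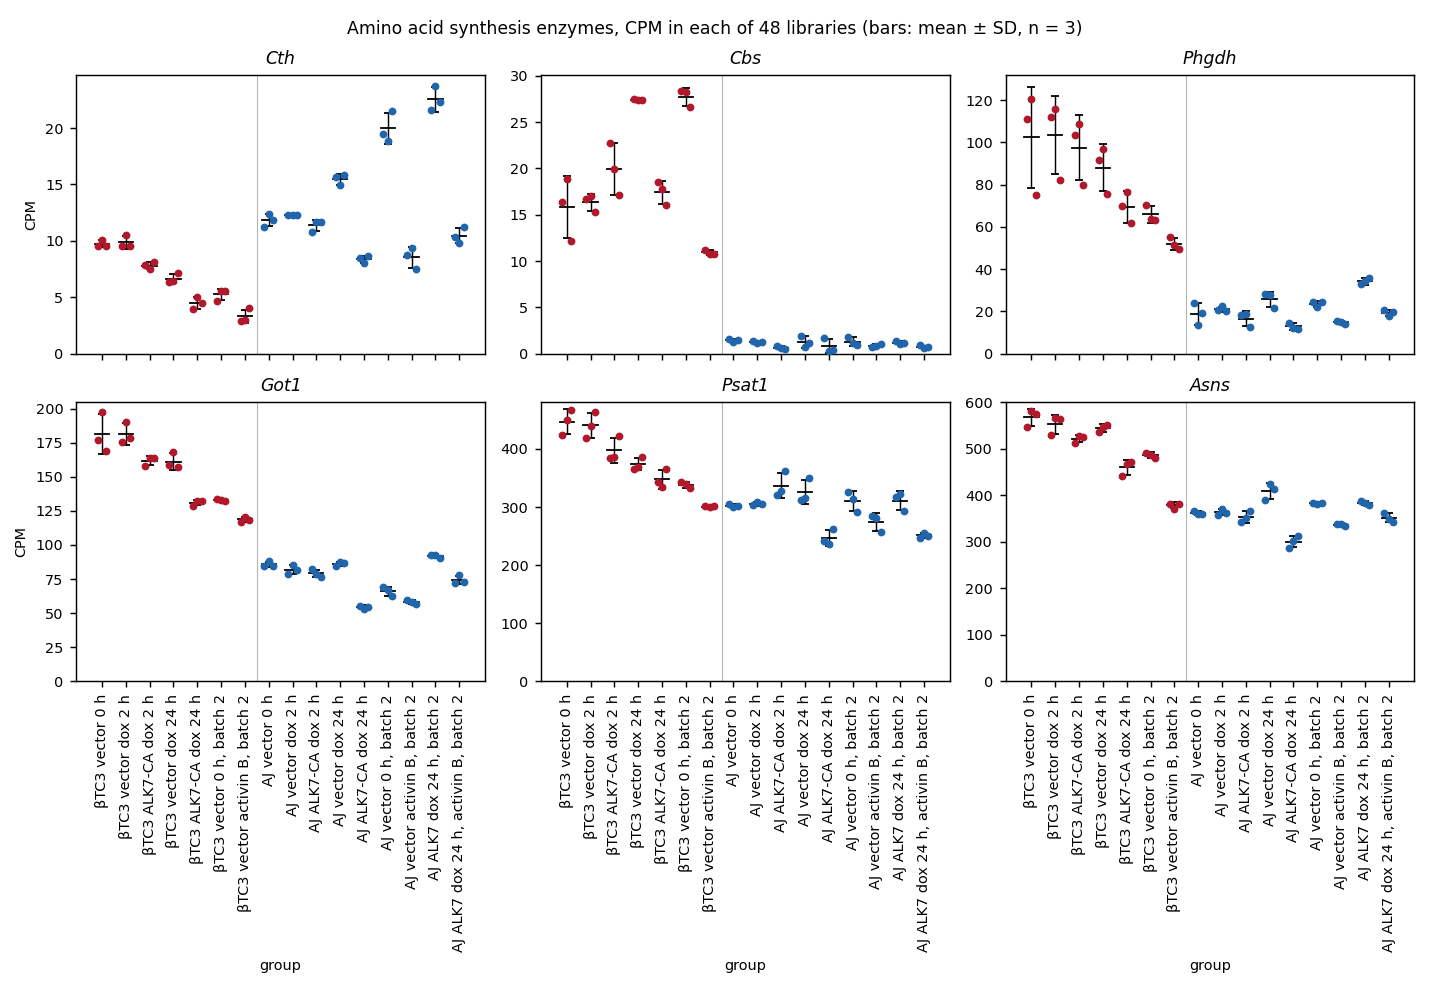
CPM of 6 synthesis enzymes (y axes) in each library of the 16 groups (x axis), βTC3 in red and AJ in blue, with black bars for the mean ± SD of 3 libraries. Cth is lower with ALK7-CA at 24 h and with activin B in each line, and Cbs, low in AJ, falls in βTC3 with activin B to 10.9 ± 0.253 CPM.

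Across the 5 comparisons of a receptor or ligand at 24 h (ALK7-CA and activin B in each line, and activin B in AJ with ALK7), 6 members fell in each: Asns, Mthfd2, Cth, Got1, Gars and Wars. Of all genes tested in the 5, 1.25% fell in each. These comparisons share no control libraries with one another. Mthfd2 no longer passed without any 1 of 4 libraries, all but replicate 3 of βTC3 ALK7-CA at 24 h and replicate 1 of βTC3 vector at 24 h (log2 value −0.17 to −0.16, adjusted p = 0.0644 to 0.0889). Got1 no longer passed without replicate 1 of βTC3 with activin B (log2 value −0.15, adjusted p = 0.0521). Cth had log2 changes of −0.57, −0.88, −0.67, −1.22 and −1.10 in that order, and Gars −0.27, −0.60, −0.30, −0.36 and −0.25. Ddit4 rose in 4 of the 5, with log2 changes of 0.46, 0.98, 0.46, 0.38 and 0.85, of which the fourth did not pass. Ddit4 no longer passed without any 1 of 4 libraries, all but replicate 2 of βTC3 with activin B and replicate 3 of untreated βTC3 (log2 value 0.39 to 0.47, adjusted p = 0.0503 to 0.0641). Atf4 mRNA fell in 1 and rose in 1, at −0.34 with ALK7-CA in AJ and 0.13 with activin B in AJ with ALK7. Atf3 both fell and rose among the 5, from −0.65 in βTC3 with ALK7-CA to 0.96 in AJ with ALK7-CA.

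**Figure D5:**
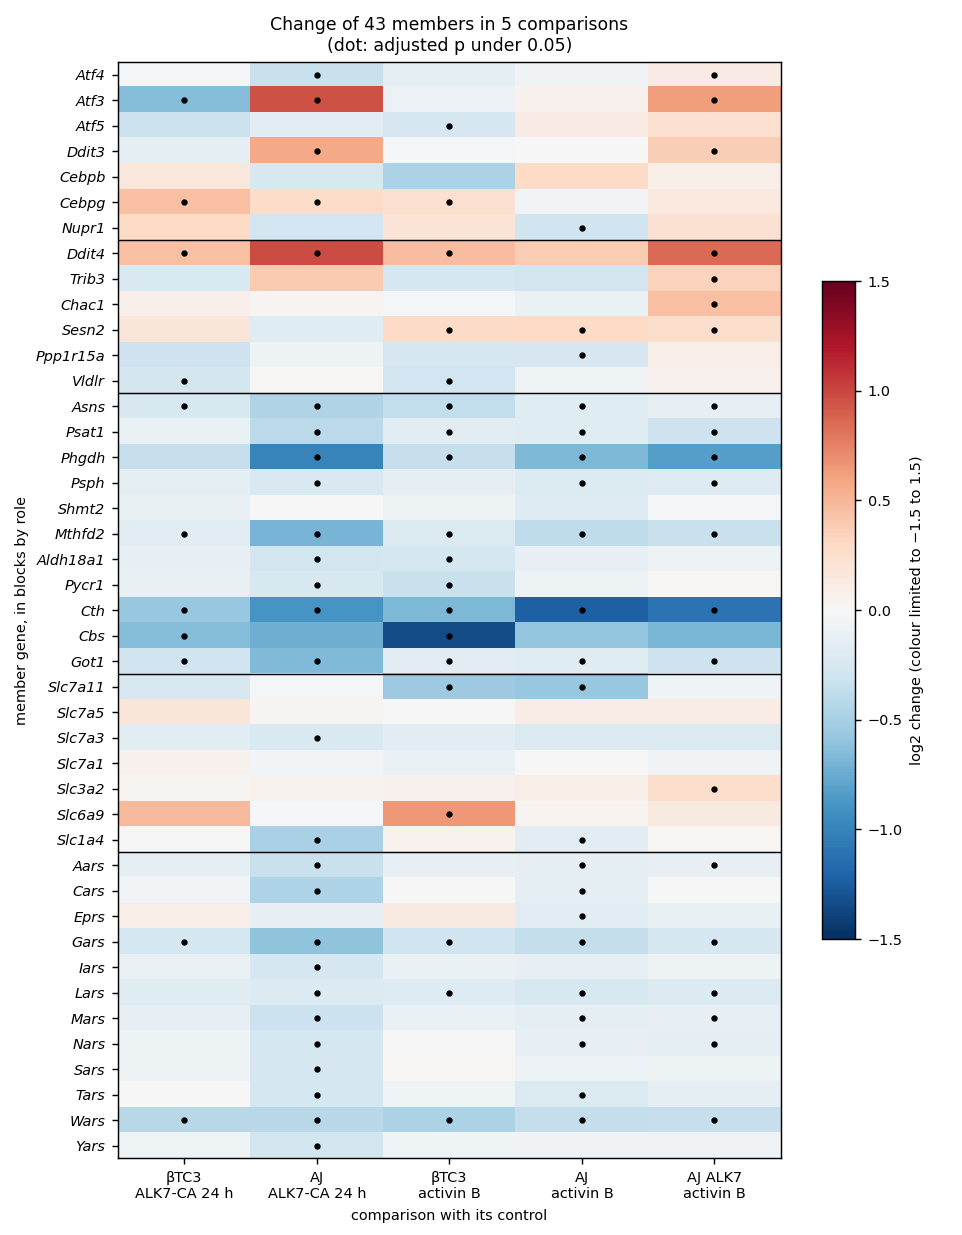
Log2 change (colour) of 43 members (y axis, in blocks by role) in 5 comparisons of ALK7-CA or activin B with their controls (x axis), with a dot where the adjusted p was under 0.05. Dots in every column mark Asns, Mthfd2, Cth, Got1, Gars and Wars, and rises are found among the upper blocks, such as Ddit4 with 0.98 in AJ with ALK7-CA.

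ALK7-CA and activin B, set against each other within a line, were read in different batches. Both groups of the ALK7-CA effect had 24 h of dox, and both groups of the activin B effect had none. The agent, the batch and dox therefore cannot be told apart. In βTC3 the effects differed (ALK7-CA minus activin B) for 1 member upward, Cbs (log2 difference 0.68, SE 0.09, adjusted p = 0.00288), and 0 downward of 43, against 1.08% and 0.275% of all genes. The block gave 3 upward and 0 downward, against 3.30% and 2.01% of all genes. Named members were at 0.13 for Atf4, −0.14 for Ddit3, 0.02 for Trib3, 0.09 for Chac1, 0.11 for Asns, 0.06 for Psat1, 0.30 for Slc7a11 and −0.12 for Sesn2. In AJ 2 differed upward and 7 downward of 44, against 7.27% and 8.30%, and 1 and 7 without the library with βTC3 transcripts. Atf3 (0.89) and Ddit3 (0.54) were the upward ones, and Ddit3 did not pass without that library (log2 change 0.53, adjusted p = 0.0573). Ddit3 no longer passed without replicate 1 of AJ vector at 24 h, or replicate 1 or 2 of AJ ALK7-CA at 24 h, or replicate 1 or 3 of untreated AJ vector, or replicate 2 of AJ vector with activin B (log2 value 0.46 to 0.55, adjusted p = 0.0552 to 0.0659). Asns no longer passed without replicate 2 of untreated AJ vector, or replicate 2 of AJ vector with activin B (log2 value −0.26 to −0.25, adjusted p = 0.0506 to 0.0520). Gars no longer passed without replicate 1 of untreated AJ vector, or replicate 2 of AJ vector with activin B (log2 value −0.25 to −0.23, adjusted p = 0.0565 to 0.0879). Got1 (−0.48), Mthfd2 (−0.33), Slc1a4 (−0.33), Cars (−0.33), Atf4 (−0.30), Asns (−0.27) and Gars (−0.25) were the downward ones. The other named members were at 0.65 for Trib3, 0.13 for Chac1, −0.23 for Psat1, 0.53 for Slc7a11 and −0.50 for Sesn2. Trib3 passed without replicate 2 of AJ vector at 24 h (log2 value 0.77, adjusted p = 0.0462) and replicate 2 of untreated AJ vector (log2 value 0.80, adjusted p = 0.0240). Sesn2 passed without replicate 3 of AJ vector at 24 h (log2 value −0.61, adjusted p = 0.00688).

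Genes of neighbouring pathways were read from further lists. The chaperone arm, driven by ATF6 and XBP1 and made of protein-folding genes of the endoplasmic reticulum, had 16 tested genes. With activin B, 15 of them fell and 0 rose in βTC3, against 9.97% and 12.3% of all genes, and 9 fell and 1 rose in AJ, against 10.9% and 11.6%. With ALK7-CA at 24 h, 9 fell and 0 rose in βTC3, against 5.48% and 8.02% of all genes, and 3 fell and 5 rose in AJ, against 19.9% and 20.8%. Hspa5 (BiP) read 1761, 1769.9 and 1788 CPM in untreated βTC3 and 1139, 1128 and 1163 CPM with activin B (log2 change −0.63, adjusted p = 9.07e-06), the treated libraries being lower without overlap. After 24 h of dox alone in βTC3, while Ddit3, Atf3 and Trib3 fell, 11 chaperone genes rose and 0 fell, against 10.6% and 12.7% of all genes, among them Hyou1 (log2 change 0.52, adjusted p = 5.81e-05). In AJ with ALK7 and dox 12 were higher and 0 lower than in vector cells, against 14.5% and 14.6% of all genes.

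Of the 11 remaining cytosolic synthetase and partner genes, 4 fell with ALK7-CA at 24 h in AJ, 6 with activin B in AJ and 7 with activin B in AJ with ALK7, and 0, 0 and 0 rose. Of all genes 19.9%, 10.9% and 16.3% fell and 20.8%, 11.6% and 16.5% rose in these comparisons. In βTC3 0 fell with ALK7-CA and 1 with activin B, where 5.48% and 9.97% of all genes did. Of the 17 mitochondrial synthetases, 3, 3 and 5 fell in the same 3 AJ comparisons and 1, 0 and 1 rose, to be read against the same shares. Other ATF4-linked genes moved both ways in AJ with ALK7-CA, 8 rising and 9 falling of 23 tested, against 20.8% and 19.9% of all genes. Among them Stc2, a secreted glycoprotein gene, fell (log2 change −1.68, adjusted p = 1.73e-08). Of the 15 initiation factors and kinases, 3 rose and 3 fell there, close to the shares of all genes. Eif2ak3, the gene of the endoplasmic reticulum kinase PERK, rose with ALK7-CA in AJ (log2 change 0.44, adjusted p = 5.48e-05) and in βTC3 (log2 change 0.27, adjusted p = 0.00674). Of 8 mitochondrial proteases and chaperones, 4 fell and 0 rose in AJ with ALK7-CA, against 19.9% and 20.8% of all genes. Mitochondrially encoded genes were listed with no counts in any library and gave no test.

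Members also varied between replicate numbers within βTC3 of batch 1. Replicate 3 was the lowest of its group in all 5 groups for 18 of the 44 members, among them 5 of 7 effectors and 3 of 7 regulators. The share of all genes for which this held is not given, so whether the count is particular to the members is not known. In all 5 groups replicate 3 was also the library that differed most from the others. At 0 h the chi-square per gene was 10.5 between replicates 1 and 2, and 37.1 and 42.8 between these and replicate 3. For Trib3 at 0 h replicate 3 read 45.1 CPM beside 65.6 and 72.4 CPM. Some members overlap another gene. Ddit3 and Mars overlap by 68 bases at their 3′ ends on opposite strands, Cebpb and Psph each overlap an abundant gene on the other strand (Tmem189 and Cct6a), and Aldh18a1 contains a counted pseudogene on its own strand. The strand setting of the counting is not given in the sources used here, so reads in these overlaps may belong to either gene and the values of these members are uncertain to that extent.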

How the data were processed

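PolyA RNA of 48 libraries was counted per Ensembl gene. The deposited tables hold raw counts, equal in 48 of 48 columns between the per-sample and series files; the authors' normalized table (48 columns) was not used. The submitters' processing notes name the build mm10 and featureCounts 1.4.4 as counter, HISAT2, cutadapt 1.4.2 and bcl2fastq 2.17 as further tools, and edgeR; the strand setting is not given in the sources used here. Per the labels' protocols, libraries were stranded mRNA libraries from 500 ng RNA.

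Symbols and positions came from GENCODE M21 (GRCm38), promoters from RefSeq (GRCm38.p6). In R 4.3.3, edgeR 4.0.16 was fitted within line and batch, or on the compared groups where a contrast crossed these, with filterByExpr (minimum count 10, total 15, proportion 0.7), TMM scaling, the quasi-likelihood test and Benjamini-Hochberg adjustment over all tested genes at 0.05, in 22 comparisons; SE is the log2 change divided by the square root of F. Alternatives were DESeq2 1.42.0, RLE scaling, no filter, 1 CPM in 3 libraries, only the compared groups, the replicate number as a block, and each library left out. Tests were tried on simulated counts. The replicate pairing check is given with the sensitivity of the results. Replicates were never alike within sampling noise (chi-square per gene 6.34 to 51.1).

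Named in each comparison were Atf4, Ddit3, Trib3, Chac1, Asns, Psat1, Slc7a11 and Sesn2 and up to 8 further members of smallest adjusted p; other genes named, list genes included, were chosen after their values were seen. The members and lists were chosen with earlier results of these data known. A marker of other endocrine cells was left out of its list and is not reported here. Intervals on counts cover counting error only.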

Additional observations from a re-analysis of the deposited data

Results flagged for a closer look

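Members whose change differed between groups by edgeR's test of the difference itself (adjusted p under 0.05 over all genes), among those named in the report, are given as log2 differences. The ALK7-CA effect at 24 h differed between the lines (βTC3 minus AJ) by 0.33 for Atf4, −0.71 for Ddit3, 0.30 for Psat1, 0.53 for Mthfd2, −1.61 for Atf3, 0.50 for Slc1a4, 0.43 for Cars, 0.36 for Got1, 0.34 for Gars, 0.27 for Tars and 0.59 for Nupr1. Fgf21, which entered the test through 1 group, is left out. The effect of activin B differed between the lines by −0.18 for Asns, 0.61 for Slc6a9, 0.29 for Eprs, 0.50 for Nupr1, −0.39 for Atf5 and 0.21 for Slc1a4. The effect of 24 h of dox in vector cells differed between the lines by −1.77 for Ddit3, −0.38 for Psat1, −1.12 for Chac1, −0.24 for Asns, −1.36 for Atf3, −1.20 for Nupr1, −0.95 for Cth, −0.76 for Slc7a3, −0.31 for Psph and −0.24 for Mthfd2. Between 2 and 24 h (24 h minus 2 h), the ALK7-CA effect in βTC3 differed by −0.94 for Cbs and −0.52 for Wars, and in AJ by −0.54 for Psat1, −0.40 for Asns, 0.71 for Ddit3, −0.25 for Atf4, −0.69 for Mthfd2, −0.61 for Got1, −0.77 for Cth, −0.50 for Gars, 1.14 for Atf3, −0.58 for Slc7a3, −0.27 for Yars and −0.33 for Mars. Nothing in these values tells why the effects differ, and it was not tested.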

How the results depend on the processing

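Of 303 counts of members past the threshold under an alternative, 54 moved by over 1.5 times, and of 3986 values of single members 3627 kept direction and call, 190 lost the call and 51 gained it, while 118 changed sign, in none of which either value passed. With the replicate block, counts were 28 for βTC3 ALK7-CA at 24 h (from 11), 8 for βTC3 ALK7-CA at 2 h (from 1), 10 for AJ ALK7-CA at 2 h (from 3), 27 for βTC3 dox at 24 h (from 11), 15 for AJ dox at 24 h (from 4), 25 for ALK7-CA by line (from 14), 29 for dox by line (from 10), 7 for activin B by ALK7 (from 2), 11 for βTC3 ALK7-CA by time (from 2), 3 for βTC3 ALK7-CA against activin B (from 1) and 14 for AJ ALK7-CA against activin B (from 9). The block raised calls over all genes too: for βTC3 ALK7-CA at 24 h, 12.9% of them fell with it and 5.48% without. Counts under an alternative that have no share of all genes in this text describe the setting and are not results about the members. With no filter on low counts, counts were 0 for βTC3 ALK7-CA at 2 h (from 1), 3 for activin B by line (from 6) and 1 for activin B by ALK7 (from 2). With only the groups of a comparison in its fit, counts were 0 for βTC3 ALK7-CA at 2 h (from 1), 12 for AJ activin B (from 21) and 1 for AJ dox at 24 h (from 4). With DESeq2, counts were 5 for AJ ALK7-CA at 2 h (from 3), 8 for AJ dox at 24 h (from 4) and 16 for dox by line (from 10). With 1 library left out, counts moved as follows, with the libraries that moved them. The count for βTC3 ALK7-CA at 2 h ran from 0 to 2 (any replicate of βTC3 vector at 2 h, any replicate of βTC3 ALK7-CA at 2 h). The count for AJ ALK7-CA at 2 h ran from 2 to 5 (replicate 3 of AJ ALK7-CA at 2 h). The count for AJ dox at 24 h ran from 3 to 7 (replicate 3 of AJ vector at 24 h). The count for activin B by line ran from 2 to 6 (replicate 2 of βTC3 with activin B, replicate 2 of untreated AJ vector, replicate 2 of AJ vector with activin B). The count for dox by line ran from 5 to 11 (replicate 1 of βTC3 vector at 24 h, replicate 2 of AJ vector at 24 h, replicate 2 of βTC3 vector at 0 h, any replicate of AJ vector at 0 h). The count for activin B by ALK7 ran from 1 to 2 (replicate 1 or 3 of untreated AJ vector, replicate 1 or 2 of AJ vector with activin B, any replicate of AJ with ALK7, any replicate of AJ with ALK7 and activin B). The count for βTC3 ALK7-CA by time ran from 1 to 3 (replicate 2 of βTC3 vector at 2 h, replicate 1 or 2 of βTC3 vector at 24 h, replicate 1 of βTC3 ALK7-CA at 2 h, replicate 1 of βTC3 ALK7-CA at 24 h). The count for βTC3 ALK7-CA against activin B ran from 1 to 2 (replicate 3 of βTC3 ALK7-CA at 24 h). The count for AJ ALK7-CA against activin B ran from 6 to 16 (replicate 3 of AJ vector at 24 h). Asns in AJ with ALK7 and dox changed sign at log2 differences of −0.000316 as reported, 0.000378 with RLE scaling, 0.0100 with no filter, 0.00676 with the 1 CPM filter and 0.000444 with DESeq2. With 1 library left out, log2 values whose sign changed, none of them past the threshold, ran over these ranges. For βTC3 ALK7-CA at 24 h they were −0.0296 to 0.00160 for Atf4 and −0.0549 to 0.22 for Chac1. For βTC3 ALK7-CA at 2 h they were −0.0326 to 0.15 for Chac1, −0.0970 to 0.0656 for Slc7a11 and −0.0553 to 0.17 for Sesn2. For AJ ALK7-CA at 24 h they were −0.0599 to 0.12 for Chac1 and −0.11 to 0.0283 for Slc7a11. For AJ ALK7-CA at 2 h they were −0.13 to 0.16 for Chac1. For βTC3 activin B they were −0.0622 to 0.0191 for Ddit3. For AJ activin B they were −0.0692 to 0.0943 for Ddit3. For activin B in AJ with ALK7 they were −0.19 to 0.0338 for Slc7a11. For AJ with ALK7 and dox they were −0.00922 to 0.0130 for Asns and −0.0335 to 0.0530 for Psat1. For βTC3 dox at 2 h they were −0.0222 to 0.0437 for Atf4, −0.0745 to 0.16 for Ddit3, −0.0709 to 0.23 for Trib3, −0.17 to 0.20 for Chac1, −0.0711 to 0.0221 for Psat1 and −0.12 to 0.16 for Sesn2. For AJ dox at 2 h they were −0.0152 to 0.0473 for Atf4, −0.0394 to 0.15 for Ddit3, −0.13 to 0.0704 for Chac1, −0.00810 to 0.0177 for Asns and −0.17 to 0.0129 for Sesn2. For AJ dox at 24 h they were −0.14 to 0.13 for Trib3 and −0.0392 to 0.18 for Sesn2. For ALK7-CA by line they were −0.0912 to 0.18 for Chac1. For activin B by line they were −0.10 to 0.0464 for Ddit3, −0.0682 to 0.15 for Trib3, −0.0518 to 0.0514 for Psat1, −0.16 to 0.18 for Slc7a11 and −0.0613 to 0.0384 for Sesn2. For activin B by ALK7 they were −0.10 to 0.0211 for Sesn2. For βTC3 ALK7-CA by time they were −0.0404 to 0.17 for Ddit3, −0.18 to 0.0542 for Trib3, −0.0953 to 0.18 for Chac1 and −0.00472 to 0.0944 for Psat1. For AJ ALK7-CA by time they were −0.00383 to 0.35 for Trib3, −0.11 to 0.17 for Chac1 and −0.12 to 0.13 for Sesn2. For βTC3 ALK7-CA against activin B they were −0.0830 to 0.15 for Trib3 and −0.0384 to 0.24 for Chac1. The replicate numbers were read as pairing libraries wherever, over genes with a mean log2 CPM over 4, every same-numbered pair of the compared groups correlated over 0.1, that is in βTC3, for AJ dox at 24 h and AJ ALK7-CA at 2 h, and between the lines at 0 h. Every pair did so in 10 of 10 pairs of groups of βTC3 batch 1, 1 of 1 of βTC3 batch 2, 5 of 10 of AJ batch 1 and 2 of 6 of AJ batch 2. Over genes above log2 CPM 0 these counts were 8 of 10, 0 of 1, 4 of 10 and 0 of 6. In some comparisons the reading thus rests on the abundant genes, as for βTC3 ALK7-CA at 24 h, βTC3 activin B and AJ ALK7-CA at 2 h. Both sets of genes gave it for βTC3 dox at 2 and 24 h, βTC3 ALK7-CA at 2 h, AJ dox at 24 h and the lines at 0 h. For the lines at 0 h a block within line leaves no residual degrees of freedom, so the number was shared by the lines (chosen after seeing the data), with 38 members past the threshold in batch 1 and 40 in batch 2. Counts here include Fgf21. The causes of these moves were not tested. With 3 libraries a group, changes in genes of few counts (Fgf21, Cbs in AJ) are known least well.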
